A study of Homo sapiens with 18 samples.

Results

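The genes described here are ATF4 and 9 genes that respond to amino acid shortage and to the stress pathway ATF4 serves: DDIT3, ASNS, TRIB3, CHAC1, SESN2, PSAT1, PHGDH, SLC7A5 and DDIT4. They were chosen by symbol, and all 10 were found among the 62754 genes of the count matrix and among the 15167 genes that passed the filter on low counts. EA.hy926 is a human endothelial line that was made by fusing umbilical vein endothelial cells with the lung carcinoma line A549. The transfection reagent alone was given to Mock cells. The siNT cells got non-targeting siRNA, and the siELMO1 cells got a pool of siRNAs to ELMO1, an adaptor protein that activates RAC1, both at 10 nM. After a night in low serum, cells were harvested 48 h past transfection (the 0 h libraries) or treated from then on for 24 h with poly(I:C), a synthetic double-stranded RNA that activates TLR3, at a dose of 1 μg per ml. This made 6 conditions of 3 libraries, 18 libraries in total. No library was kept for the same further 24 h without poly(I:C), so poly(I:C) and the later time after transfection cannot be told apart.

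ATF4 is the transcription factor of the integrated stress response. The kinases GCN2, PERK, PKR and HRI sense uncharged tRNA, unfolded protein in the endoplasmic reticulum, double-stranded RNA and lack of heme, and each phosphorylates the initiation factor eIF2α, which lowers protein synthesis in general but raises translation of ATF4. ATF4 then pairs with C/EBP and other bZIP proteins on C/EBP-ATF response elements and switches on genes that make, import and save amino acids. Much of this control acts on translation, so the mRNA of ATF4 measured here is not its activity.

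The libraries held 40.4 to 73.9 M estimated counts each (median 60.9 M), and the 10 genes took 0.0357 to 0.121% of them. Every total is above the range of paired-end reads per sample that the paper gives, so estimated counts are not numbers of sequenced fragments. Levels are CPM, a count scaled to a common library total after TMM factors, which correct for differences in composition. ELMO1 was at 0.155 to 0.419 CPM in the 6 siELMO1 libraries and at 1.52 to 3.58 CPM in the 12 others. Its log2 difference in siELMO1 from siNT was −3.11 at 0 h and −3.64 at 24 h. Of 10 endothelial markers 9 were above 1 CPM on average in every condition. Of 5 leukocyte markers 1, LYZ, passed the filter, and of 6 fibroblast and smooth muscle markers 1, ACTA2. The endothelial markers summed to 2710 to 2960 CPM in siELMO1 at 0 h and 2520 to 3060 CPM at 24 h, above the other libraries, which held 1920 to 2040 CPM at 0 h, 1430 to 1800 CPM in Mock at 24 h and 1840 to 2050 CPM in siNT at 24 h. Of 6 epithelial markers, listed because A549 is a parent of the line, 4 passed the filter and CDH1 and KRT19 did not. Their list summed to 842 to 2220 CPM and was lower at 24 h. Which parent these transcripts come from was not tested. LYZ was higher in siELMO1 than in siNT at 24 h by 0.89 on the log2 scale (adjusted p = 0.00103) and not at 0 h (−0.15, adjusted p = 0.54), with the leukocyte list summing to 1.58 to 7.50 CPM over all libraries. ACTA2 was higher in siELMO1 than in siNT by 1.94 at 0 h (adjusted p = 2.45e-10), and its list summed to 17.6 to 19.0 CPM in siELMO1 and 5.11 to 5.36 CPM in siNT there. The part of these marker levels in the results was not tested. Replicate 1 of siELMO1 at 0 h stood apart from its mates, with a chi-square per degree of freedom of 70.9 and 79.1 against them and 10.2 between the other pair. Some of the results that use it, not all, are also given without it. The methods call the 3 libraries of a condition biological replicates, and treatments had several wells, but for the sequenced libraries it is not stated whether each came from a separate experiment, so p-values measure the spread between these libraries, which may be technical.

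The response element is shown first, because it is the sequence through which ATF4 reaches its targets. The core searched was TGATGNAA on either strand of the DNA, in windows of 300 bases that run from 250 bases before to 50 bases after the start of each gene in RefSeq (GRCh38.p14). All 10 genes matched a window by symbol, with 15 windows in all, and the core was found in 1 window each of ASNS and CHAC1. Among all 35116 windows of the same length, 3.62% held it. The 30 bases around each core are printed below on the strand of the gene, with the core in capitals.
ASNS: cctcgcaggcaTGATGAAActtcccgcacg
CHAC1: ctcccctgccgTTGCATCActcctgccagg
The ASNS stretch is at chr7:97872458-97872487 on the minus strand. Its core begins 68 bases before the start and reads in the direction of the gene. It is the element known from earlier work on ASNS as the nutrient-sensing response element. It lies before the start that RefSeq gives, but GENCODE v44 has 3 transcripts, ASNS-201, ASNS-205 and ASNS-211, with an exon over it. The CHAC1 stretch is at chr15:40953251-40953280 on the plus strand, 209 bases before the start, with the core on the opposite strand. An exon of 1 annotated transcript, CHAC1-201, covers it. For the other 8 genes these letters are not in the windows searched.

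Compared per kilobase of the transcript with the most counts, ATF4 was the most abundant of the 10 genes in all 6 conditions, and CHAC1 the least. The order rests on the length of that transcript, which held 25.5% of the counts of ATF4, 44.1% of DDIT3 and 49.7% of PHGDH. Lengths of other transcripts were not tried. In Mock cells at 0 h ATF4 was at 91.5 ± 0.912 CPM per kb (SD, n = 3), followed by PSAT1 at 35.0 ± 0.0802, TRIB3 at 34.1 ± 0.854, PHGDH at 27.9 ± 0.729 and SLC7A5 at 21.3 ± 1.62. DDIT3 at 14.4 ± 1.42 and ASNS at 14.1 ± 0.328 had overlapping libraries and could not be ranked, SESN2 was at 8.04 ± 0.128 and DDIT4 at 6.35 ± 0.377, and CHAC1 was at 1.12 ± 0.0425 CPM per kb. At 24 h with poly(I:C) DDIT3 had moved to second place in Mock cells, with 69.5 ± 11.4 CPM per kb, while neighbours from PSAT1 through SESN2 overlapped. A single annotated transcript held nearly all counts of TRIB3, SESN2, PSAT1 and SLC7A5, at least 96.3% in each library. For ATF4, DDIT3, ASNS, PHGDH and DDIT4 the split among transcripts differed widely between libraries of 1 condition, for example from 8.68 to 37.4% for transcript ATF4-201 in siNT cells at 0 h, so transcript shares were not compared between conditions. Pseudogenes took few counts beside their parents, 1023 against 218934 for ATF4, 158 against 65237 for PSAT1 and 104 against 130931 for SLC7A5.

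**Figure D1:**
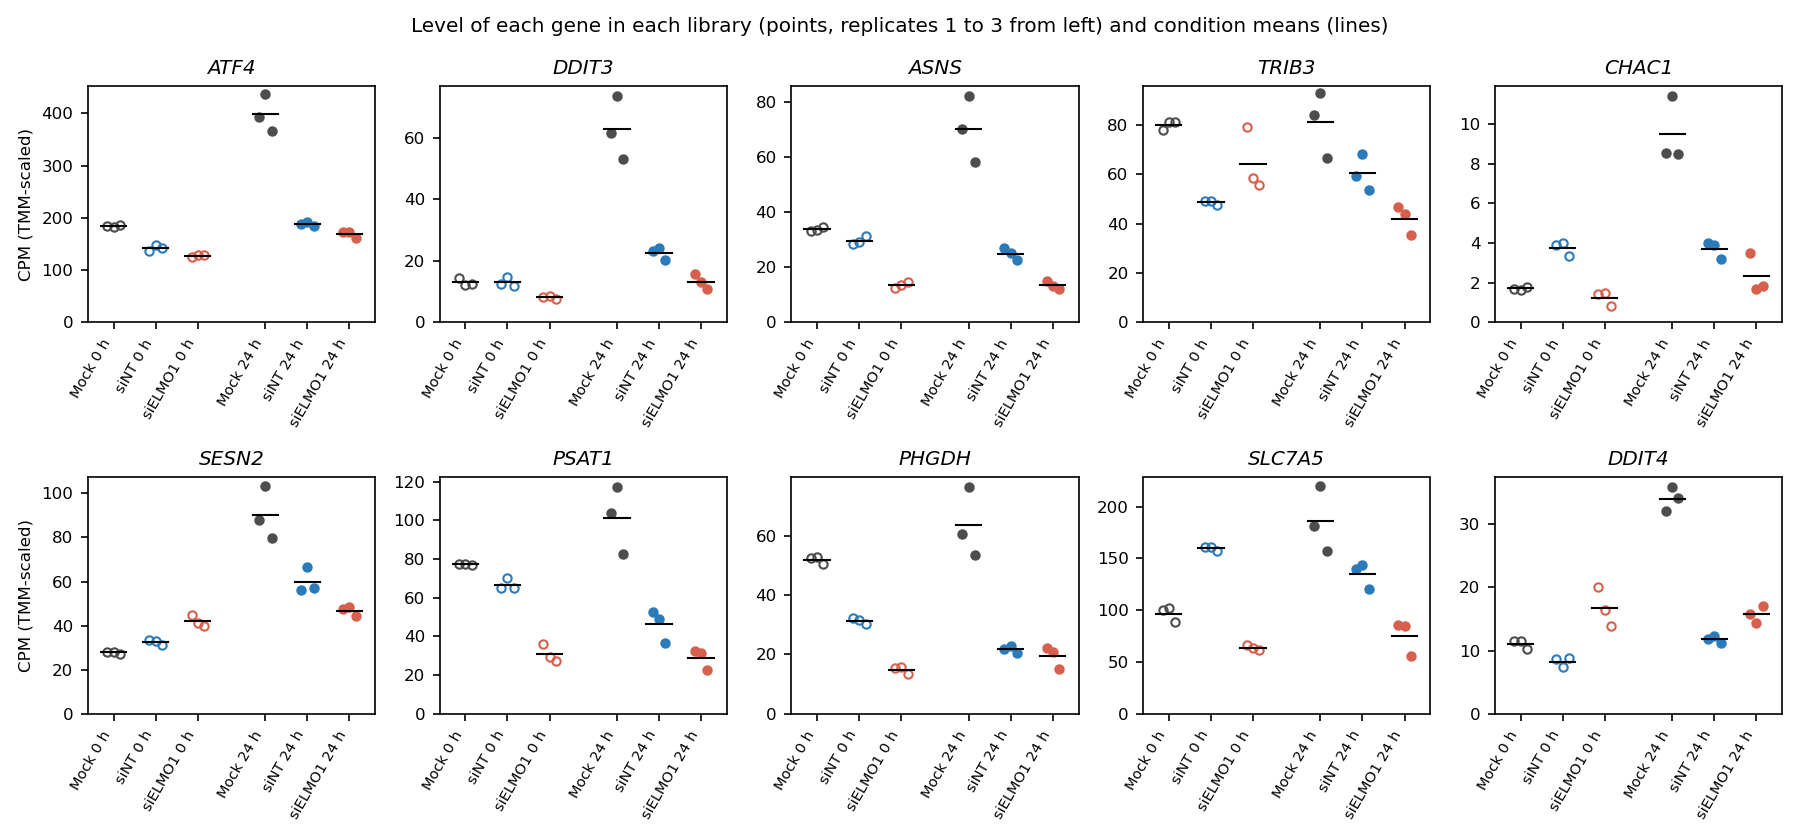
Each panel shows 1 gene, with CPM after TMM scaling on a linear axis from 0, a point for each library, a line for the mean of the 3 libraries of a condition, open points for 0 h and filled points for 24 h with poly(I:C). The mean is highest in Mock cells at 24 h for all 10 genes, and lowest in siELMO1 cells at 0 h or 24 h for 8 of them.

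The first question is how poly(I:C) changed these genes in cells without siRNA. In Mock cells 9 of the 10 rose and none fell, by edgeR's quasi-likelihood test with Benjamini-Hochberg adjustment over all genes tested (adjusted p under 0.05). Over all 15167 genes, 30.7% were higher and 29.6% lower in this comparison. The median log2 change of the 10 genes was 1.08, against 0.00665 for all genes. All of the rises were free of overlap between the 0 h and the 24 h libraries, which was not set against the share of all genes free of it.

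ATF4 (ENSG00000128272.18, chr22:39519695-39522683) was at 184, 183 and 187 CPM in the 3 Mock libraries before poly(I:C), and it reached 393, 436.5 and 367 CPM after it. The groups were far apart, and the log2 rise was 1.11 ± 0.0545 (SE), 2.16-fold, with an adjusted p of 7.52e-12. DDIT3 (ENSG00000175197.13, chr12:57516588-57521737) encodes CHOP, the partner of ATF4 that is linked to cell death in prolonged stress. It stood at 14.5, 12.1 and 12.5 CPM before and at 61.6, 73.6 and 53.0 CPM after poly(I:C), a log2 rise of 2.27 ± 0.136 (adjusted p = 1.15e-10). In all, 4 other genes overlap DDIT3 in GENCODE v44, among them MARS1 and MBD6 on the opposite strand with 247748 and 74363 counts over all libraries against 23588 for DDIT3. Whether the counting used strand is not given in the sources used here, so reads could be shared between them. CHAC1 (ENSG00000128965.13, chr15:40952962-40956512), which degrades glutathione and is a target of ATF4 and CHOP, had the largest rise of the 10. Its Mock libraries were at 1.70, 1.65 and 1.77 CPM before and at 8.54, 11.4 and 8.48 CPM after, 5.5-fold higher (log2 2.47 ± 0.252, adjusted p = 1.55e-07). TRIB3 (ENSG00000101255.12, chr20:362835-397559), a pseudokinase that restrains ATF4 and CHOP, was the exception. At 77.9, 81.3 and 81.5 CPM before and 84.0, 93.0 and 66.7 CPM after, its libraries overlapped, and its log2 difference was 0.02 with a 95% interval from −0.26 to 0.30.

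SESN2 and DDIT4 encode inhibitors of the growth kinase mTORC1, SESN2 (sestrin 2) as a sensor of leucine and DDIT4 (REDD1) through the TSC complex. Both rose about 3-fold in Mock cells. SESN2 (ENSG00000130766.5, chr1:28259518-28282491) went from 27.9, 28.2 and 27.4 CPM to 88.0, 103 and 79.8 CPM (log2 1.70 ± 0.0844, adjusted p = 8.81e-12). DDIT4 (ENSG00000168209.6, chr10:72273919-72276036) went from 11.5, 11.4 and 10.3 CPM to 32.0, 35.9 and 34.0 CPM (log2 1.62 ± 0.111, adjusted p = 7.89e-10). The lowest library after poly(I:C) was well above the highest one before it for both genes.

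The genes of amino acid supply among the 10 rose less. ASNS (ENSG00000070669.17, chr7:97851677-97872542), asparagine synthetase, went from 33.01, 33.6 and 34.6 CPM to 70.05, 82.1 and 58.1 CPM in Mock cells, 2.08-fold (log2 1.06 ± 0.104, adjusted p = 1.02e-07). A non-coding RNA gene on the same strand, ENSG00000284707, overlaps ASNS, with 3731 counts over all libraries against 33910 for ASNS. Reads could be shared between these too. SLC7A5 (ENSG00000103257.9, chr16:87830023-87869507), the light chain of the LAT1 importer of large neutral amino acids, went from 100.2, 102 and 88.5 CPM to 181, 220.0 and 157 CPM (log2 0.94 ± 0.132, adjusted p = 7.45e-06). For PSAT1 (ENSG00000135069.14, chr9:78297125-78330093) and PHGDH (ENSG00000092621.13, chr1:119648411-119744218), enzymes of serine synthesis, the rise was small. PSAT1 was at 77.4, 77.3 and 77.0 CPM before and 104, 117 and 82.5 CPM after (log2 0.39 ± 0.145, adjusted p = 0.028), and PHGDH at 52.5, 52.9 and 50.4 CPM before and 60.6, 76.4 and 53.6 CPM after (log2 0.29 ± 0.118, adjusted p = 0.0412). Scaling by plain library totals, which moves the median of all genes in this comparison by −0.122, ended both calls (adjusted p = 0.128 for PSAT1 and 0.228 for PHGDH). So did leaving out any 1 of the Mock libraries except replicate 3 at 24 h (adjusted p from 0.0748 to 0.307), and for PHGDH also siNT 0 h replicate 2 (adjusted p = 0.0503). The smallest changes, 0.27 for PSAT1 and 0.14 for PHGDH, came without Mock 24 h replicate 2. That library held the highest value of its condition for all 10 genes, and replicate 3 the lowest for 9 of them.

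In siNT cells 4 of the 10 genes rose and 2 fell with poly(I:C), where 28.6% of all genes were higher and 25.2% lower. The median log2 change of the 10 was 0.148, against 0.0144 for all genes. ATF4 rose from 136, 147 and 142 CPM to 188, 192 and 185 CPM, a log2 change of 0.41 ± 0.0542 (adjusted p = 5.59e-06). DDIT3 rose by 0.79 ± 0.134 on the log2 scale (adjusted p = 7.95e-05), SESN2 by 0.88 ± 0.0833 (adjusted p = 8.98e-08) and DDIT4 by 0.51 ± 0.113 (adjusted p = 0.000931). The serine synthesis genes went down: PSAT1 from 64.8, 70.4 and 64.9 CPM to 52.8, 49.1 and 36.8 CPM (log2 −0.53 ± 0.147, adjusted p = 0.00573), and PHGDH from 32.4, 31.4 and 30.4 CPM to 21.9, 23.0 and 20.6 CPM (log2 −0.52 ± 0.122, adjusted p = 0.00146). CHAC1 was at 3.88, 4.01 and 3.35 CPM before and at 4.01, 3.87 and 3.20 CPM after, a log2 difference of −0.02 with an interval from −0.53 to 0.49. ASNS (log2 −0.26, adjusted p = 0.0503) and TRIB3 (log2 0.32, adjusted p = 0.0547) missed the threshold and passed it in 4 of the 9 alternatives each. SLC7A5 had a log2 difference of −0.25 (adjusted p = 0.117), and passed in 2 of the 9 and without siELMO1 24 h replicate 3 (adjusted p = 0.0323).

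In siELMO1 cells 4 rose and 1 fell, where 28% of all genes were higher and 26.9% lower. The median log2 change of the 10 was 0.199, against −3.99e-05 for all genes. ATF4 rose from 125, 130 and 128 CPM to 173, 173 and 161 CPM (log2 0.41 ± 0.0544, adjusted p = 5.12e-06), and DDIT3 from 8.15, 8.60 and 7.50 CPM to 15.6, 13.1 and 10.7 CPM (log2 0.71 ± 0.139, adjusted p = 0.000341). These were the clearest rises, with no overlap of libraries. CHAC1 was at 1.44, 1.46 and 0.838 CPM before and at 3.52, 1.66 and 1.82 CPM after (log2 0.91 ± 0.258, adjusted p = 0.00638); without siELMO1 24 h replicate 1 its change was 0.48 (adjusted p = 0.0776). PHGDH rose by 0.38 ± 0.125 on the log2 scale (adjusted p = 0.017), with overlapping libraries and no call without siELMO1 24 h replicate 1 (0.27, adjusted p = 0.103), replicate 2 (0.33, adjusted p = 0.0639) or siELMO1 0 h replicate 3 (0.31, adjusted p = 0.0752). TRIB3 fell from 79.1, 58.4 and 55.6 CPM to 46.6, 43.99 and 35.3 CPM (log2 −0.62 ± 0.134, adjusted p = 0.000796). Its highest value at 0 h was in the library that stood apart, without which the change was −0.44 (adjusted p = 0.00622). SESN2, DDIT4, ASNS, PSAT1 and SLC7A5 did not pass the test, with log2 differences from −0.10 to 0.24. Without siELMO1 24 h replicate 3, SLC7A5 passed (0.42, adjusted p = 0.00322).

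**Figure D2:**
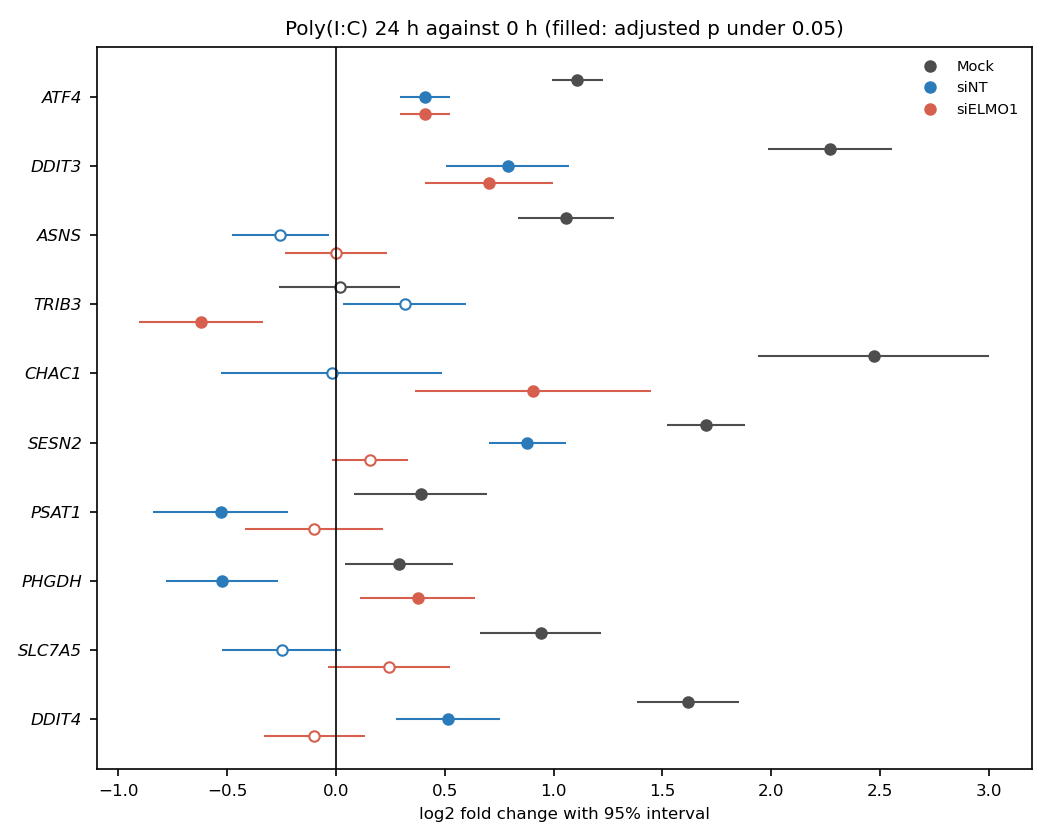
The horizontal axis is the log2 fold change at 24 h of poly(I:C) against 0 h, with its 95% interval, for each of the 10 genes in Mock, siNT and siELMO1 cells, and filled points have an adjusted p under 0.05. For 8 genes the Mock point lies to the right of both others, while TRIB3 in Mock lies near 0.02 and PHGDH has its highest point in siELMO1.

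Whether the response to poly(I:C) differed between transfections was tested as the difference of 2 log2 changes in the same model. These tests share their Mock or siRNA libraries, so their values stand side by side. Against Mock, the siNT response was lower for 9 genes and higher for none, where 16% of all genes were lower and 15% higher. The difference was −2.49 ± 0.346 on the log2 scale for CHAC1 (adjusted p = 3.05e-05), −1.48 ± 0.187 for DDIT3 (adjusted p = 1.17e-05), −1.31 ± 0.148 for ASNS (adjusted p = 3.47e-06) and −0.70 ± 0.0765 for ATF4 (adjusted p = 2.3e-06). SLC7A5 differed by −1.19, DDIT4 by −1.10, PSAT1 by −0.92, SESN2 by −0.82 and PHGDH by −0.82. TRIB3, with a difference of 0.30 and an interval from −0.10 to 0.69, did not pass. Against Mock, the siELMO1 response was lower for 8 genes and higher for none, where 14.6% of all genes were lower and 13.8% higher. It differed most for DDIT4, by −1.72 ± 0.156 (adjusted p = 2.95e-07), DDIT3, by −1.57 ± 0.192 (adjusted p = 9.58e-06), CHAC1, by −1.56 ± 0.355 (adjusted p = 0.00307), and SESN2, by −1.54 ± 0.118 (adjusted p = 3.93e-08). ASNS differed by −1.06, ATF4 and SLC7A5 by −0.70 each and TRIB3 by −0.64. PSAT1 (−0.49, interval −0.93 to −0.05, adjusted p = 0.0914) and PHGDH (0.08, interval −0.28 to 0.45) did not pass, though PSAT1 did without Mock 24 h replicate 3 (−0.62, adjusted p = 0.0335).

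Between siELMO1 and siNT the response differed for 5 genes, higher for 2 and lower for 3, where 16.7% of all genes were higher and 17.8% lower. For ATF4 the difference was 0.00 with an interval from −0.16 to 0.16, and for DDIT3 it was −0.08 with an interval from −0.49 to 0.32. The log2 change in siELMO1 minus that in siNT was −0.72 ± 0.117 for SESN2 (adjusted p = 0.000116) and −0.61 ± 0.158 for DDIT4 (adjusted p = 0.00574), both of which rose in siNT and did not pass in siELMO1. For TRIB3 it was −0.94 ± 0.19 (adjusted p = 0.000911), with a fall in siELMO1 and a change of 0.32 that did not pass in siNT. For PHGDH it was 0.90 ± 0.174 (adjusted p = 0.000626), with a rise in siELMO1 and a fall in siNT. SLC7A5 also passed, at 0.49 ± 0.186 (adjusted p = 0.0493), a call that was lost in 5 of the 9 alternatives and with any 1 of 14 of the 18 libraries left out (adjusted p from 0.0515 to 0.137). CHAC1, at 0.93 ± 0.353 (adjusted p = 0.0504), missed the threshold and passed it in 2 of the 9, and PSAT1 had a difference of 0.43 (adjusted p = 0.13). Without replicate 1 of siELMO1 at 0 h both passed, at 1.06 for CHAC1 (adjusted p = 0.0362) and 0.56 for PSAT1 (adjusted p = 0.0468), and TRIB3 differed by −0.76 (adjusted p = 0.00161). Both also passed without siELMO1 24 h replicate 3 (adjusted p = 0.0305 and 0.0338), and CHAC1 without replicate 2 of siELMO1 at 0 h or 24 h (adjusted p = 0.0469 and 0.0189). ASNS had a difference of 0.25 with an interval from −0.07 to 0.58.

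The next question is how the transfections differed before poly(I:C). In siELMO1 against siNT at 0 h, 3 of the 10 genes were higher and 7 lower, where 31.3% of all genes were higher and 31.3% lower. The median log2 difference of the 10 was −0.881, against 0.000932 for all genes. None of the 10 had overlapping libraries, which was not set against the share of all genes without overlap. Among the 10, the genes of amino acid supply were all lower. ASNS was at 12.4, 13.7 and 14.5 CPM in siELMO1 and at 28.4, 29.2 and 31.3 CPM in siNT, a log2 difference of −1.14 ± 0.109 (adjusted p = 6.05e-08). PSAT1, at 36.0, 29.3 and 27.1 CPM in siELMO1, was lower by −1.11 ± 0.15 (adjusted p = 4.33e-06), and PHGDH, at 15.5, 15.8 and 13.5 CPM, by −1.07 ± 0.124 (adjusted p = 6.65e-07). SLC7A5 was at 66.2, 63.3 and 62.0 CPM in siELMO1 and at 161, 162 and 158 CPM in siNT, a difference of −1.33 ± 0.134 (adjusted p = 1.18e-07). DDIT3 was lower by −0.69 ± 0.139 (adjusted p = 0.000325) and CHAC1 by −1.59 ± 0.256 (adjusted p = 3.35e-05).

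The inhibitors of mTORC1 stood on the other side. DDIT4 was at 20.1, 16.5 and 13.8 CPM in siELMO1 and at 8.61, 7.32 and 8.75 CPM in siNT at 0 h (log2 1.03 ± 0.113, adjusted p = 3.21e-07), and SESN2 at 44.9, 41.1 and 39.9 CPM against 33.4, 32.9 and 31.3 CPM (log2 0.37 ± 0.0835, adjusted p = 0.00091). Without replicate 1 of siELMO1 at 0 h the differences were 0.88 and 0.32, and both remained past the threshold (adjusted p = 7.87e-07 and 0.00589). TRIB3 was also higher, at 79.1, 58.4 and 55.6 CPM against 49.1, 49.3 and 47.5 CPM (log2 0.41 ± 0.134, adjusted p = 0.0133), but not without that library (0.23, adjusted p = 0.118). ATF4 itself was lower by −0.15 ± 0.0543 (adjusted p = 0.0198), and without the same library the difference was −0.14 (adjusted p = 0.0528). The ATF4 call was also lost without siNT 0 h replicate 2 (adjusted p = 0.0859).

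Against Mock at 0 h, siELMO1 cells had 2 genes higher and 6 lower, where 27.9% of all genes were higher and 22.4% lower, with a median of −0.569 for the 10 and 0.0408 for all genes. PHGDH, at 52.5, 52.9 and 50.4 CPM in Mock, showed the largest difference, −1.80 ± 0.125 (adjusted p = 1.61e-09). ASNS followed with −1.32 ± 0.109 (adjusted p = 1.6e-08) and PSAT1 with −1.32 ± 0.15 (adjusted p = 9.47e-07). ATF4 was lower by −0.54 ± 0.0544 (adjusted p = 2.33e-07), DDIT3 by −0.69 ± 0.139 (adjusted p = 0.000485) and SLC7A5 by −0.60 ± 0.133 (adjusted p = 0.00103). SESN2 (0.59 ± 0.0837, adjusted p = 1.21e-05) and DDIT4 (0.61 ± 0.111, adjusted p = 0.000188) were higher, as they were against siNT. TRIB3, at −0.31 (adjusted p = 0.058), passed in 6 of the 9 alternatives and without replicate 1 of siELMO1 (−0.49, adjusted p = 0.00325), and CHAC1 had a log2 difference of −0.45 (adjusted p = 0.158).

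The last comparison at 0 h is of the non-targeting siRNA with the reagent alone. In siNT against Mock 3 of the 10 were higher, near the share of 27.6% of all genes. Another 4 were lower, where 24% of all genes were lower. The median was −0.199 for the 10 and 0.0285 for all genes. CHAC1 was at 3.88, 4.01 and 3.35 CPM in siNT and at 1.70, 1.65 and 1.77 CPM in Mock (log2 1.13 ± 0.247, adjusted p = 0.000926). SLC7A5 was at 161, 162 and 158 CPM against 100.2, 102 and 88.5 CPM (log2 0.72 ± 0.131, adjusted p = 0.000169). These are the genes for which siNT stood above both Mock and siELMO1 at 0 h. SESN2 was slightly higher, by 0.22 ± 0.0835 (adjusted p = 0.032), a call that was lost with library totals (adjusted p = 0.122), with upper-quartile factors (adjusted p = 0.0607) and without any 1 of the Mock libraries at 0 h, siNT 0 h replicate 1 or 2, or Mock 24 h replicate 1 (adjusted p from 0.0757 to 0.155). ATF4 was lower by −0.38 ± 0.0542 (adjusted p = 1.35e-05), TRIB3 by −0.72 ± 0.133 (adjusted p = 0.000204), PHGDH by −0.72 ± 0.119 (adjusted p = 6.58e-05) and DDIT4 by −0.43 ± 0.112 (adjusted p = 0.00406). ASNS (−0.19, adjusted p = 0.149) and PSAT1 (−0.21, adjusted p = 0.241) did not pass, but were lower past the threshold in a fit of only the libraries compared (adjusted p = 0.00287 and 3e-04), where 9 genes were called in place of 7. For DDIT3 the difference was 0.00 with an interval from −0.28 to 0.29.

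After poly(I:C) for 24 h each of the 10 genes was lower with either siRNA than with reagent alone. Both comparisons share the Mock libraries. For siELMO1 against Mock 22% of all genes were lower and 21.6% higher, and for siNT against Mock 24.9% were lower and 25.2% higher. The median log2 difference of the 10 genes was −1.51 for siELMO1 and −1.25 for siNT, against −0.00835 and −8.17e-05 for all genes. In bulk RNA, fewer cells that express a gene and less RNA of it per cell cannot be told apart. The part of the cell death that the paper reports for siNT cells was not tested. ASNS was at 15.1, 13.1 and 12.2 CPM in siELMO1, 27.0, 25.0 and 22.6 CPM in siNT and 70.05, 82.1 and 58.1 CPM in Mock, so that the 3 transfections did not overlap. Its log2 difference from Mock was −2.38 ± 0.11 in siELMO1 (adjusted p = 7.94e-11) and −1.50 ± 0.106 in siNT (adjusted p = 5.85e-09). DDIT3 was at 15.6, 13.1 and 10.7 CPM in siELMO1 and at 23.2, 24.1 and 20.2 CPM in siNT, differing from Mock by −2.25 ± 0.136 (adjusted p = 1e-09) and −1.48 ± 0.132 (adjusted p = 8.13e-08). ATF4 differed from Mock by −1.24 ± 0.0547 in siELMO1 (adjusted p = 5.47e-11) and by −1.08 ± 0.0545 in siNT (adjusted p = 1.28e-10). CHAC1 differed by −2.02 ± 0.248 in siELMO1 and −1.36 ± 0.242 in siNT, PSAT1 by −1.81 ± 0.152 and −1.13 ± 0.148, and PHGDH by −1.71 ± 0.123 and −1.54 ± 0.123. For SESN2 the differences were −0.95 ± 0.0826 and −0.59 ± 0.082, for SLC7A5 −1.30 ± 0.133 and −0.47 ± 0.131, and for TRIB3 −0.95 ± 0.135 and −0.42 ± 0.133, in siELMO1 and siNT respectively. DDIT4 was the gene with the order reversed, at −1.11 ± 0.11 in siELMO1 and −1.53 ± 0.112 in siNT. For these 7 genes the adjusted p ran from 6.85e-09 to 1.72e-05 in siELMO1 and from 7.99e-09 to 0.0136 in siNT. In siNT against Mock, the calls for TRIB3 and SLC7A5 were lost without Mock 24 h replicate 2 (adjusted p = 0.0804 and 0.0504), and that for TRIB3 also without siNT 24 h replicate 3 (adjusted p = 0.0634).

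Compared directly at 24 h, siELMO1 was lower than siNT for 8 genes and higher for 1, where 26.5% of all genes were lower and 26% higher, with a median of −0.594 for the 10 and −0.00609 for all genes. ASNS was lower by −0.88 ± 0.109 (adjusted p = 2.97e-06), SLC7A5 by −0.83 ± 0.132 (adjusted p = 4.68e-05), DDIT3 by −0.77 ± 0.134 (adjusted p = 0.000114), PSAT1 by −0.68 ± 0.15 (adjusted p = 0.000984) and TRIB3 by −0.53 ± 0.134 (adjusted p = 0.00311). SESN2, which was higher in siELMO1 at 0 h, was now lower, at 47.6, 48.3 and 44.4 CPM against 56.0, 66.5 and 57.0 CPM (log2 −0.36 ± 0.0825, adjusted p = 0.00152). DDIT4 remained higher, at 15.8, 14.3 and 17.1 CPM against 11.8, 12.3 and 11.2 CPM (log2 0.42 ± 0.111, adjusted p = 0.00419). ATF4 was lower by −0.15 ± 0.0541 (adjusted p = 0.0245) and CHAC1 by −0.66 ± 0.245 (adjusted p = 0.0319), both near the threshold. The ATF4 call was lost without siNT 24 h replicate 1 or 2 or siELMO1 24 h replicate 3 (adjusted p from 0.0512 to 0.108), and that of CHAC1 without siNT 24 h replicate 1 or 2 or siELMO1 24 h replicate 2 or 3 (adjusted p from 0.0783 to 0.15). Both calls were also lost with no filter on low counts (adjusted p = 0.103 for ATF4 and 0.0732 for CHAC1). In a fit of only the libraries compared, that of CHAC1 was lost as well (adjusted p = 0.0803). The libraries of CHAC1 overlapped, and so did those of PHGDH, which had a difference of −0.17 and an interval from −0.43 to 0.09.

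**Figure D3:**
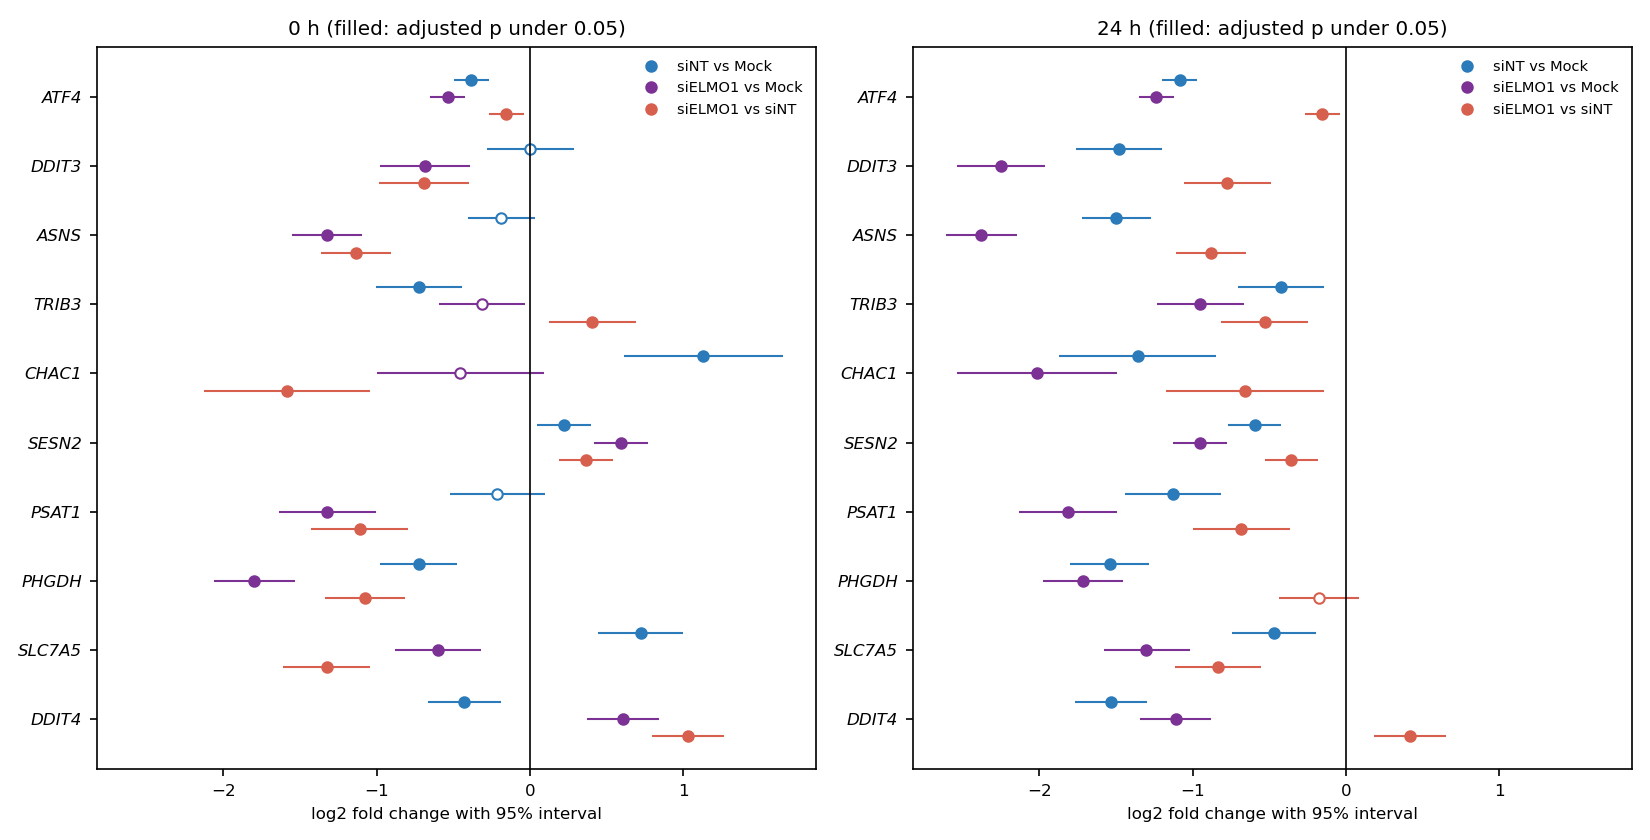
The horizontal axes show log2 fold changes with 95% intervals for siNT against Mock, siELMO1 against Mock and siELMO1 against siNT, at 0 h on the left and at 24 h with poly(I:C) on the right, with filled points for an adjusted p under 0.05. At 0 h the genes lie on both sides of 0, with DDIT4 and SESN2 higher in siELMO1 than in Mock, and at 24 h every comparison with Mock lies below 0.

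Across the 6 conditions ASNS, PSAT1 and PHGDH had the most similar courses among the 10. Likeness was measured as the root mean square difference of log2 condition means, each gene centred on its own mean, over 12872 other genes. PSAT1 was the nearest of all genes to ASNS (0.239), and PHGDH the nearest to PSAT1 (0.231). For PHGDH the nearest gene was PTPRG-AS1 (0.163), with PSAT1 second. DDIT3 and CHAC1 were 0.357 apart, rank 4 and 5 from each side. For ATF4 the nearest of the other 9 was SESN2, at 0.379 and rank 619, while C7orf31 (0.11), SNHG8 (0.111) and LRRC2 (0.113) were closest among all genes. TRIB3 had the most distant nearest gene of the 10, ATF4 at 0.446 and rank 6116.

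Other genes of the pathway were taken from lists. Among 14 genes for eIF2α kinases, phosphatases and the exchange factor eIF2B, 5 rose and 6 fell in Mock cells with poly(I:C), where 30.7% of all genes were higher and 29.6% lower. The kinase PKR (EIF2AK2), which double-stranded RNA activates and interferon induces, rose in each transfection, by 1.67 on the log2 scale in Mock (adjusted p = 3.82e-13), 1.59 in siNT (adjusted p = 1.39e-12) and 1.82 in siELMO1 (adjusted p = 1.52e-13). Its response in siELMO1 and siNT differed from that in Mock by 0.16 and −0.07 (adjusted p = 0.212 and 0.585). PERK (EIF2AK3) rose in Mock (0.32, adjusted p = 0.00528) and fell in siNT (−0.33, adjusted p = 0.00527) and siELMO1 (−0.25, adjusted p = 0.0227). GCN2 (EIF2AK4) and HRI (EIF2AK1) fell in all 3, with log2 changes from −0.55 to −0.21. PPP1R15A, the phosphatase subunit that ATF4 and CHOP induce to restore translation, was at 93.2 ± 1.59 CPM in Mock at 0 h and 270.3 ± 35.1 at 24 h, a log2 rise of 1.54 (adjusted p = 3.45e-10). Its response was lower in siNT by −0.50 (adjusted p = 0.0108) and in siELMO1 by −1.10 (adjusted p = 1.27e-05).

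Of the bZIP partners of ATF4, 9 were listed, and all 7 that passed the filter rose with poly(I:C) in each of the 3 transfections (30.7%, 28.6% and 28% of all genes in Mock, siNT and siELMO1), among them ATF3, a stress-induced repressor and partner, and BATF2, an interferon-induced factor. ATF3 rose by 2.92 in Mock (adjusted p = 5.84e-15), 1.90 in siNT (adjusted p = 7.16e-12) and 2.59 in siELMO1 (adjusted p = 6.34e-14) on the log2 scale. CEBPB rose by 1.67, 1.29 and 1.596 in the same order (adjusted p = 1.53e-10, 8.53e-09 and 5.65e-10). At 0 h CEBPB and CEBPG were lower in siELMO1 than in siNT, by −1.16 (adjusted p = 2.42e-08) for CEBPB and −1.15 (adjusted p = 5.44e-12) for CEBPG, which counts under the partners and under other targets. Against siNT, the response in siELMO1 was higher for 5 of the 7 and lower for none (16.7% and 17.8% of all genes), with a difference of 0.69 for ATF3 (adjusted p = 0.000297) and 0.31 for CEBPB (adjusted p = 0.106).

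Among aminoacyl-tRNA synthetases, which charge tRNA with amino acids, 13 belong to the ATF4 programme and 7 are other cytosolic ones. Of the 13, 7 rose and 3 fell in Mock cells with poly(I:C) (30.7% and 29.6% of all genes). At 24 h 9 were lower and none higher both in siELMO1 and in siNT than in Mock, with medians of −0.259 and −0.31. Of all genes, 22% and 24.9% were lower and 21.6% and 25.2% higher, in the same order. AARS1 was lower by −0.79 in siELMO1 (adjusted p = 5.1e-08) and −0.91 in siNT (adjusted p = 1e-08). WARS1, which interferon also induces, rose from 114 ± 2.90 to 1281 ± 92.7 CPM in Mock, a log2 change of 3.49 (adjusted p = 8.57e-16). Of the 7 others, 3 rose and 3 fell in Mock (30.7% and 29.6% of all genes), with a median of 0.0156. At 24 h 2 of these 7 were higher and 1 lower in siELMO1 than in Mock, where 21.6% of all genes were higher and 22% lower.

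Of 10 transporters tested, of 11 listed, 3 rose and 5 fell in Mock with poly(I:C) (30.7% and 29.6% of all genes), and 1 was higher and 6 lower in siELMO1 than in siNT at 0 h (31.3% of all genes each way). SLC3A2, the heavy chain that SLC7A5 needs to reach the membrane, rose in Mock by 1.28 (adjusted p = 3.61e-09) and in siELMO1 by 0.76 (adjusted p = 3.53e-06) with poly(I:C). SLC7A11, which imports cystine for glutathione and answers to ATF4 and NRF2, fell in Mock with poly(I:C), where it decreased by 1.37 on the log2 scale (adjusted p = 2.54e-09). At 0 h it was at 60.03 ± 2.51 CPM in siELMO1 and 483 ± 22 CPM in siNT (log2 −3.01, adjusted p = 2.33e-13). In the list of 14 enzymes for serine, glycine, proline and one-carbon units, 7 were higher and 5 lower in siELMO1 than in siNT at 0 h, with a median of 0.111 (31.3% of all genes each way). SHMT2, the mitochondrial enzyme that follows PHGDH and PSAT1 on the way to glycine, was at 45.1 ± 1.14 CPM in siELMO1 and 200.3 ± 4.6 CPM in siNT (log2 −2.15, adjusted p = 5.43e-14), the largest fall of the list, while CBS was higher by 1.16 (adjusted p = 5.5e-06). Of 11 other targets of ATF4 and CHOP tested, of 16 listed, 7 rose and 2 fell in Mock with poly(I:C) (30.7% and 29.6% of all genes), with BBC3, the death gene PUMA, up by 1.75 (adjusted p = 7.18e-09).

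The 17 chaperone and degradation genes of the endoplasmic reticulum, listed under the factors ATF6 and XBP1, were set beside these. Genes that ATF4 may also reach were not removed from the list, and which factor acted on them was not tested. In Mock cells 13 rose and none fell with poly(I:C) (30.7% and 29.6% of all genes), among them DNAJB9 by 2.26 (adjusted p = 2.26e-12) and XBP1 by 1.90 (adjusted p = 5.36e-15). In siELMO1 against siNT 13 were higher and 2 lower at both 0 h and 24 h. Of all genes, 31.3% and 26% were higher and 31.3% and 26.5% lower at these times. HYOU1 was at 384 ± 37.1 CPM in siELMO1 and 156 ± 3.74 CPM in siNT at 0 h (log2 1.30, adjusted p = 3.04e-10), and HSP90B1 was higher by 1.16 at 24 h (adjusted p = 3.24e-11). Without replicate 1 of siELMO1 at 0 h, 14 were higher and 2 lower at 0 h. At 24 h 14 were lower and none higher in siNT than in Mock (24.9% and 25.2% of all genes), with HERPUD1 at −1.55 (adjusted p = 2.02e-09). Of 16 genes for mTORC1 and its amino acid sensors tested, of 18 listed, 3 rose and 9 fell in Mock with poly(I:C) (30.7% and 29.6% of all genes), with CASTOR2 at −1.70 (adjusted p = 1.25e-07). In siELMO1 against Mock at 0 h 7 were higher and 2 lower (27.9% and 22.4% of all genes).

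**Figure D4:**
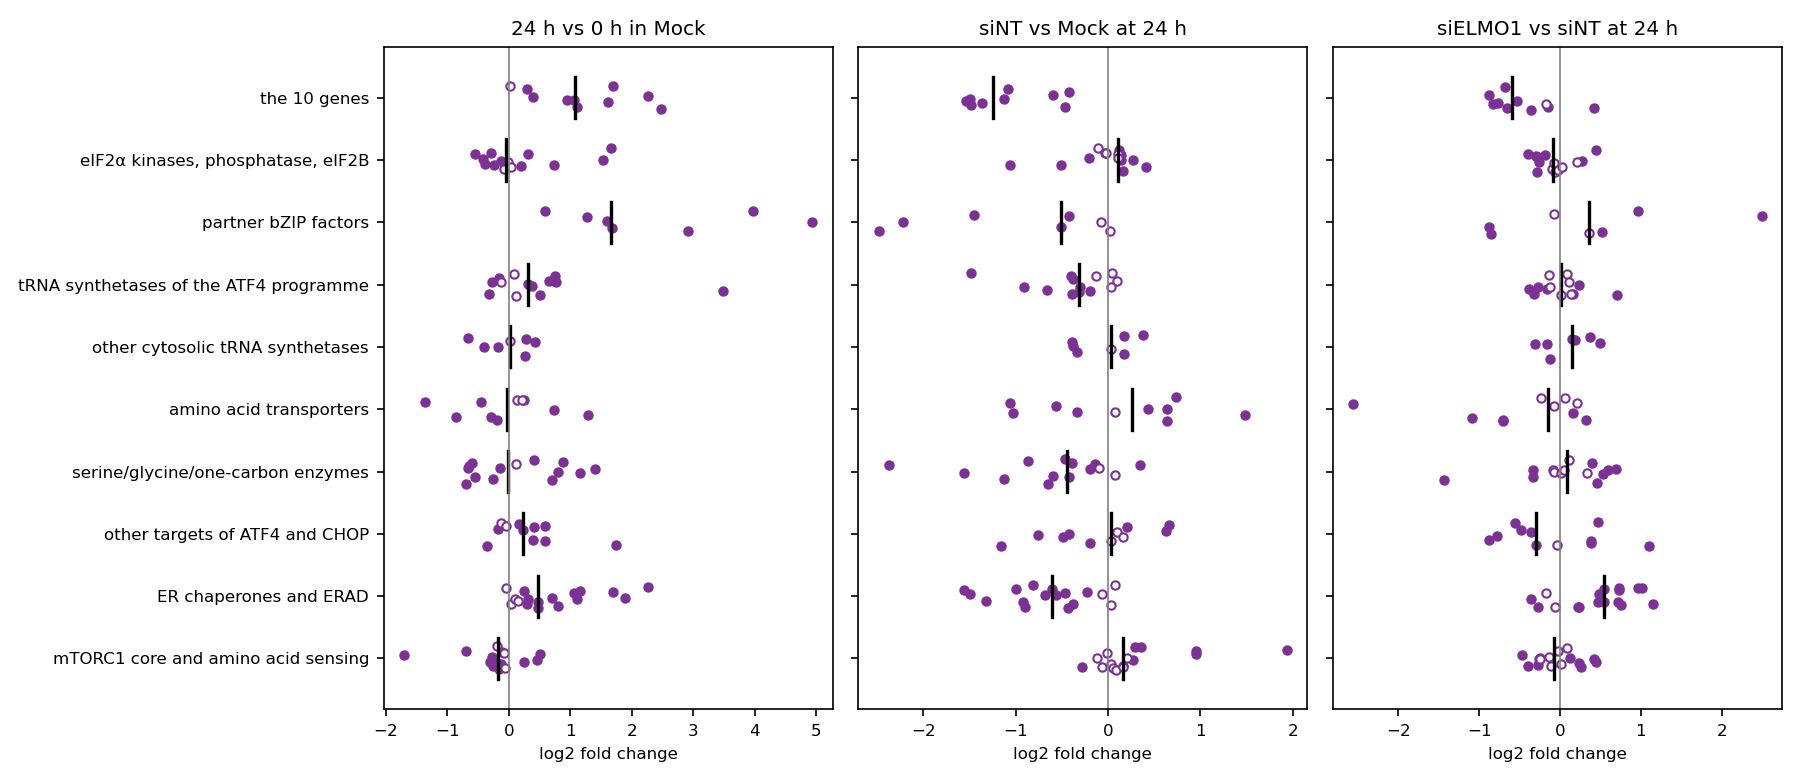
Each point is a gene of the list named at the left, the horizontal axis is its log2 fold change in the comparison named above the panel, filled points have an adjusted p under 0.05 and black bars are list medians. The median of the 10 genes is 1.08 for poly(I:C) in Mock, −1.25 for siNT against Mock at 24 h and −0.594 for siELMO1 against siNT at 24 h, and the endoplasmic reticulum list has medians of 0.479, −0.61 and 0.547.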

How the data were processed

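The data are RNA sequencing libraries of EA.hy926 cells, 3 for each of 6 conditions. The authors aligned reads to GRCh38 with STAR, quantified GENCODE v44 genes with StringTie and deposited matrices of expected counts (estimated counts, whole numbers, not normalized) per gene and per transcript. The read length used in that conversion and any use of strand are not given in the sources used here. The study's own test was limma with voom, with dream for fixed and random effects. The kit marks strand.

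Here the filter of the study was kept (100 counts or more summed over libraries, and 1 CPM or more in some library), and 15167 genes passed. One edgeR 4.0.16 model (R 4.3.3) of 6 condition means was fitted with TMM factors (0.958 to 1.06), followed by quasi-likelihood tests, two-sided, with Benjamini-Hochberg adjustment. Dispersion came to a biological coefficient of variation of 12.2%. A gene was called at an adjusted p under 0.05, and intervals are 95%. Steps were tested on simulated data. All 10 genes are named. From each list and comparison, up to 2 rises and 2 falls with the largest change are named, besides EIF2AK1 to EIF2AK4, PPP1R15A, ATF3 and CEBPB. The 10 genes and the lists were chosen with earlier results of these data known. Alternatives were DESeq2 1.42.0, limma 3.58.1 with voom, other scalings and filters, the replicate number as a block, fewer libraries and each library left out.

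Residuals of same-numbered libraries correlated at over 0.1 in all 3 pairs (r across genes of 0.148, 0.218 and 0.303) only between Mock and siNT at 24 h. Between Mock and siELMO1 at 24 h r was 0.0446, 0.259 and 0.344, and between siNT and siELMO1 0.0378, 0.179 and 0.37. Replicate 3 was lowest at 24 h for 9 of the 10 genes in Mock, 9 in siNT and 8 in siELMO1. Libraries of unlike number were not correlated, so whether numbers mark pairs is not settled. No main test used the block, which changed no call for siNT against Mock at 24 h.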

Additional observations from a re-analysis of the deposited data

Results flagged for a closer look

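For 22 combinations of gene and pair of transfections the response to poly(I:C) differed by the test of the difference itself (adjusted p under 0.05 in edgeR's quasi-likelihood test), and each is given as the log2 response in the first transfection minus that in the second. The 3 pairs share libraries.

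Between siNT and Mock the differences were −2.49 for CHAC1, −1.48 for DDIT3, −1.31 for ASNS, −1.19 for SLC7A5, −1.10 for DDIT4, −0.919 for PSAT1, −0.82 for SESN2, −0.815 for PHGDH and −0.702 for ATF4. The adjusted p ran from 2.3e-06 for ATF4 to 0.00245 for PSAT1.

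Between siELMO1 and Mock they were −1.72 for DDIT4, −1.57 for DDIT3, −1.56 for CHAC1, −1.54 for SESN2, −1.06 for ASNS, −0.701 for ATF4, −0.699 for SLC7A5 and −0.637 for TRIB3. The adjusted p ran from 3.93e-08 for SESN2 to 0.0172 for TRIB3, whose call was lost without Mock 24 h replicate 2 (adjusted p = 0.0523).

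Between siELMO1 and siNT they were −0.936 for TRIB3, −0.724 for SESN2, −0.613 for DDIT4, 0.493 for SLC7A5 and 0.9 for PHGDH. The adjusted p ran from 0.000116 for SESN2 to 0.0493 for SLC7A5.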

How the results depend on the processing

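No value of the 10 genes that was called changed sign in any of the 9 alternatives or with any of the 18 libraries left out. Of 1080 values under the alternatives, 1039 kept their side of the threshold, 19 lost the call and 22 gained it. Of 2160 values with 1 library left out, 2083 kept their side, 49 lost the call and 28 gained it. Over both sets together, 46 values that were called neither in the main fit nor in the other fit differed in sign. The count of members changed moved by over 1.5 times in 1 comparison: at 24 h against 0 h in siELMO1 it was 5, and 3 with only the libraries compared, where fewer samples enter the fit. With 1 library left out it ran from 3 to 6 there, with 3 without siELMO1 24 h replicate 1. In the other comparisons the members changed with 1 library left out were 8 to 10 for siELMO1 against siNT and 8 to 9 against Mock at 0 h, and 7 to 9 and 10 in every case at 24 h.

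Outside Mock against siNT at 24 h, at least 1 of the 3 correlations of same-numbered libraries was not over 0.1. With the replicate number as a block the members changed ran from 5 to 10 per comparison, and 6 calls were gained and none lost with it in edgeR. Among these PSAT1 passed for the response in siELMO1 minus siNT (0.44, adjusted p = 0.0324) and minus Mock (−0.48, adjusted p = 0.0223), and SLC7A5 for 24 h against 0 h in siNT (−0.26, adjusted p = 0.0288). Library totals in place of TMM factors moved the share of higher among all called genes for 24 h against 0 h in Mock from 50.9 to 37.9%, for siELMO1 against Mock at 0 h from 55.5 to 43.9%, and for the differences of responses from Mock from 48.6 to 60.4% in siELMO1 and from 48.3 to 64.8% in siNT. CHAC1 had the fewest counts of the 10 genes and the widest intervals.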
